A study of Mus musculus with 8 samples.

Results

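A set of 10 genes was examined here as the core of glycogen metabolism and its kinase control, and all 10 were found by symbol among the 50578 genes of the deposited count matrix. The members were the glycogenin gene Gyg, the synthase gene Gys1, the branching enzyme gene Gbe1, the phosphorylase genes Pygb, Pygl and Pygm, the protein phosphatase 1 targeting subunits Ppp1r3b and Ppp1r3c, and the glycogen synthase kinase 3 genes Gsk3a and Gsk3b. RNA-seq had been performed on wild-type mouse embryonic fibroblasts (MEFs, primary cells that the methods describe as isolated from C57BL/6J embryos and used at passages 3 to 5) in 4 groups of 2 libraries each. The control group was untreated MEFs, and the other groups were MEFs given carbidopa, LY-364747 or CHIR-99021 at 10 µM after 2 h of attachment, with fresh medium every 3 days. Carbidopa inhibits aromatic L-amino acid decarboxylase, and CHIR-99021 inhibits both GSK3 kinases. LY-364747 is the spelling of the labels, whereas the methods write LY-364947, a TGF-beta receptor inhibitor. The methods give a duration of treatment for the cells of a PCR assay, and none is given for the RNA-seq libraries in the sources used here.

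Glycogen is the branched storage polymer of glucose. Glycogenin primes a new particle, glycogen synthase extends it from UDP-glucose, and the branching enzyme inserts the branch points. Glycogen phosphorylase releases glucose 1-phosphate from the chain ends. Phosphatase 1, brought to the particle by its targeting subunits, dephosphorylates synthase and phosphorylase and so favours storage. GSK3 does the opposite to synthase by phosphorylating it, and the same kinases mark beta-catenin for destruction in the Wnt pathway. In the liver the storage enzymes include the isoforms Gys2 and Pygl, while Gys1 and Pygb serve many other tissues and Pygm serves muscle. The study stained treated cells for glycogen as a hepatic function, so the question addressed here is how the RNA of this machinery differed between the groups.

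3 members are shown by the sequence in front of their start, because Ppp1r3c and Gbe1 had the largest differences from MEF among the tested members in either direction and Gys1 differed between compounds. Gyg differed more than Gys1 between CHIR-99021 and each other compound, and its sequence is not shown. The sequences come from RefSeq (GRCm38.p6), which held an entry for 9 of the 10 members (Ppp1r3b was not among them), and run 5′ to 3′ on the strand of the gene. Capitals mark matches, on either strand, to any of 6 motifs. The TCF/LEF motif, named for the DNA-binding partners of beta-catenin, was searched as CTTTGAT. An E-box was searched as CACGTG, and the CCAAT box by the letters of its name. The GC box was searched as GGGCGG. The TATA box was searched as TATAAA. The palindrome bound by SMAD factors, which act under the TGF-beta receptor, was searched as GTCTAGAC. The motifs were chosen after these sequences had been seen. The Ppp1r3c stretch lies at chr19:36736654-36736854 on the minus strand and ends where the GENCODE gene begins, the Gbe1 stretch at chr16:70313699-70313948 and the Gys1 stretch at chr7:45434589-45434838, both on the plus strand.

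Ppp1r3c: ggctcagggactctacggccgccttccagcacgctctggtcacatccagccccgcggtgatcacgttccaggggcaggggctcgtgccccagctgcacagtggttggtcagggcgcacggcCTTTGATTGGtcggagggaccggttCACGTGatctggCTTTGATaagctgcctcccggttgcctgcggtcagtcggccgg
Gbe1: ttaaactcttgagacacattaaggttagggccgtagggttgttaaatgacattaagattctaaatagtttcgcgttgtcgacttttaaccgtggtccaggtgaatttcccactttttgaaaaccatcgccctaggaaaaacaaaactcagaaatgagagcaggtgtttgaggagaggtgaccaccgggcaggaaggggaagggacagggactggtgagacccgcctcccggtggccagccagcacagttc
Gys1: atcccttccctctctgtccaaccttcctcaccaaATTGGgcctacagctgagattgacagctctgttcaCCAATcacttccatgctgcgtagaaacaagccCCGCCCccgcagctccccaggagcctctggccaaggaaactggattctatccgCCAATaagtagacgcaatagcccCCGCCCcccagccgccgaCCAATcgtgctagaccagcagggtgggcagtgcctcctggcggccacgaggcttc

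In the 250 bases before the RefSeq start, Ppp1r3c was the only one of the 9 members with the CTTTGAT letters, which it held 2 times, 129 and 92 bases before the start. Distances are counted from the RefSeq start, which for Ppp1r3c lies 49 bases past the end of the stretch printed above. It was also the only member with CACGTG, found 104 bases before the start. Over all 32851 RefSeq windows of this length, 3.21% held CTTTGAT and 6.02% held CACGTG. The upstream CTTTGAT match overlapped a match to CCAAT on the other strand, 124 bases before the start. Gys1 held 4 CCAAT matches and 2 GC boxes, letters found in 33.8% and 32.7% of all windows, and Gbe1 held none of the 6 motifs. GTCTAGAC was in none of the 9 members and in 0.167% of windows, and TATAAA, in 12.4% of windows, was found among the members only before Gsk3b. A match is a description of the letters and not evidence that a factor binds there.

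Total counts ran from 15039566 to 20504338 reads per library, and 15154 genes passed the filter on low counts. The label of the treated groups is hepatic-like cells. The 10 hepatocyte markers summed to 3 and 8 reads in the MEF libraries and to 21 to 29 reads in the treated ones. Alb, Apoa1, Apoa2 and Hnf4a had higher mean levels in each treated group than in MEFs. Ttr, Fgb and Cps1 did not, and Ahsg, Serpina1a and Tat were at 0 in all 8 libraries. None of the 10 had enough reads to be tested. By PCR, the study reports Alb and Hnf4a as increased in treated cells. Markers of other cells moved with treatment. Levels are given as CPM, read counts scaled to a common library size with TMM factors. The summed level of 10 fibroblast markers was 15900 and 16100 CPM in MEFs and 5930 to 8150 in treated cells, with 7 of the 10 lower and 1 higher in each comparison with MEF. The summed level of 14 macrophage markers was 1210 and 1260 CPM in MEFs, 397 and 380 under carbidopa, 282 and 292 under LY-364747, and 92.0 and 99.7 under CHIR-99021. Over all genes, the median log2 difference from MEF was 0.037 for carbidopa, 0.028 for LY-364747 and 0.043 for CHIR-99021 with TMM factors. It became 0.29, 0.25 and 0.26 when libraries were scaled by their plain totals, which moved the share of called genes that were higher from 47.8%, 44.3% and 48.2% to 73.9%, 70.0% and 69.8%. In bulk RNA, fewer cells of a type and less RNA per cell cannot be told apart. Nothing in the labels says that replicates came from separate cultures, so p-values measure the spread between these libraries, which may be technical.

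Against untreated MEFs, the branching enzyme gene Gbe1 rose and Ppp1r3c and Pygl fell under each compound, while Gyg rose under carbidopa and LY-364747 and fell under CHIR-99021. Of the 9 members tested, 6 passed an adjusted p of 0.05 under carbidopa (2 higher, 4 lower), where 37.7% of all genes did (18.0% higher and 19.7% lower). Under LY-364747 the count was 4 (2 higher, 2 lower), against 31.0% of all genes (13.7% higher and 17.2% lower). Under CHIR-99021 it was 4 (1 higher, 3 lower), against 38.8% of all genes (18.7% higher and 20.1% lower). The median log2 fold change of the 9 was -0.20, -0.20 and -0.08, beside 0.037, 0.028 and 0.043 over all genes. The same pair of MEF libraries served in all 3 comparisons. Every tested member had at least 16 reads in each library, and Pygm, with 2 to 11 reads, was not tested.

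**Figure D1:**
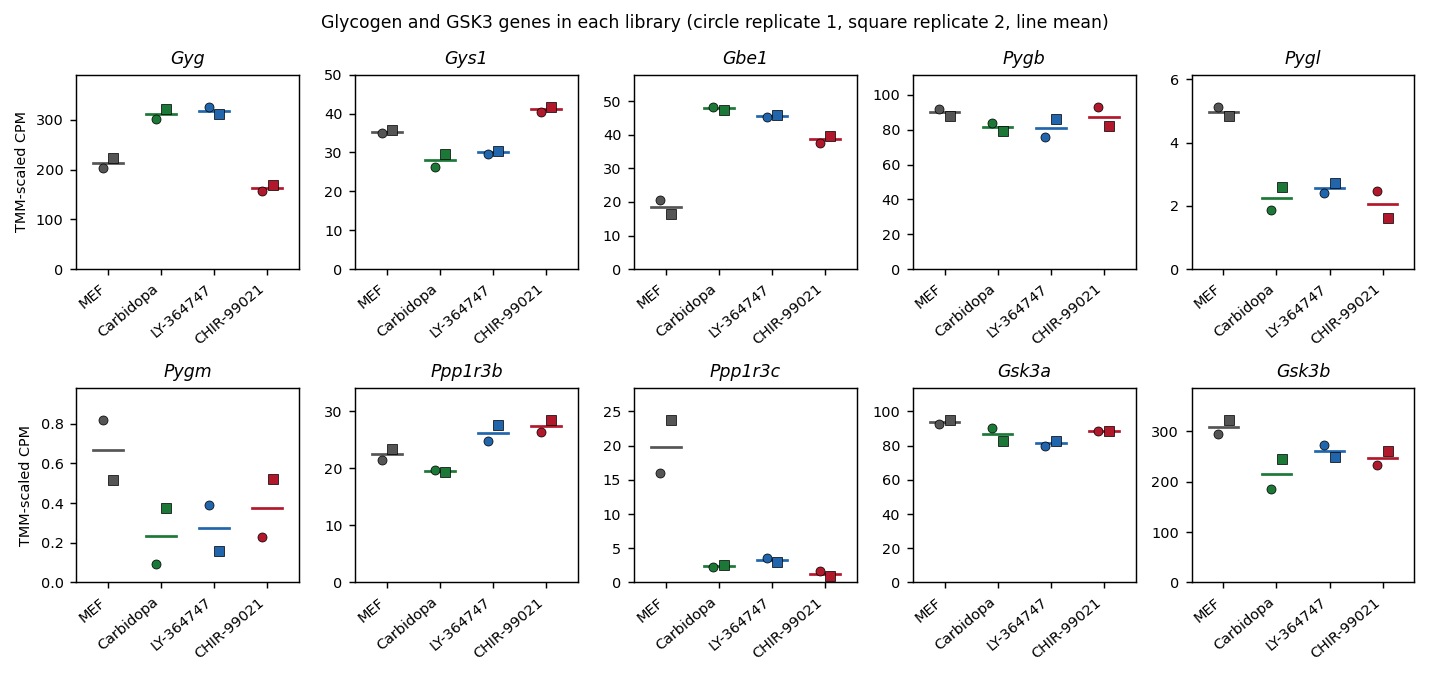
TMM-scaled CPM of each of the 10 genes (y axis, linear and starting at 0, with its own range per panel) in the 8 libraries by group (x axis). Points are libraries and lines are means of 2. The 6 treated libraries sit above both MEF libraries for Gbe1 and below them for Ppp1r3c and Pygl, and for Gyg the CHIR-99021 libraries sit below MEF while the other treated ones sit above.

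Gyg, on chr3:20122084-20155317, encodes glycogenin, the protein that primes glycogen. It was the most abundant member per length in every group, at 91.3 ± 6.25 (SD, n = 2) CPM per kb of exon in MEFs. Its levels were 204 and 224 CPM in MEFs, 302 and 322 under carbidopa, 326 and 311 under LY-364747, and 158 and 170 under CHIR-99021. The groups did not overlap, except for carbidopa and LY-364747 with each other. Gyg rose 1.46-fold under carbidopa (log2 0.54, SE 0.10, edgeR adjusted p = 0.00184) and 1.49-fold under LY-364747 (log2 0.57, edgeR adjusted p = 0.00141). Under CHIR-99021 it fell by 0.38 on the log2 scale (SE 0.10, edgeR adjusted p = 0.012). The CHIR-99021 call was lost with plain library totals (log2 -0.17, edgeR adjusted p = 0.166), without MEF replicate 2 (log2 -0.32, edgeR adjusted p = 0.136) and without CHIR-99021 replicate 1 (log2 -0.33, edgeR adjusted p = 0.114), and both increases were called in each of the 8 fits that left out a library.

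The difference between compounds was larger than either of these. CHIR-99021 cells had 1.90-fold less Gyg RNA than carbidopa cells (log2 -0.93, 95% interval -1.15 to -0.70, edgeR adjusted p = 0.00027) and 1.94-fold less than LY-364747 cells (log2 -0.96, 95% interval -1.18 to -0.73, edgeR adjusted p = 0.000238). Both held in each fit that left out a library.

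Gys1, on chr7:45434844-45456619, encodes the synthase isoform of muscle and most other tissues. Its levels were 35.0 and 35.7 CPM in MEFs, 26.3 and 29.7 under carbidopa, 29.5 and 30.5 under LY-364747, and 40.5 and 41.7 under CHIR-99021. CHIR-99021 libraries were the highest and did not overlap any other group. Gys1 was 1.47-fold higher under CHIR-99021 than under carbidopa (log2 0.55, SE 0.11, edgeR adjusted p = 0.00714) and 1.37-fold higher than under LY-364747 (log2 0.45, SE 0.11, edgeR adjusted p = 0.0191). The first call was lost without CHIR-99021 replicate 1 or 2 (edgeR adjusted p = 0.0535 and 0.0544), and the second without MEF replicate 2, either CHIR-99021 replicate or either LY-364747 replicate (edgeR adjusted p = 0.0532 to 0.183), with log2 differences of 0.42 or more throughout.

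Against MEF the Gys1 differences were smaller than these. Under carbidopa Gys1 fell by 0.33 on the log2 scale (SE 0.11, edgeR adjusted p = 0.0332), a call lost in 7 of the 8 fits without a library (all but the one without carbidopa replicate 2, edgeR adjusted p = 0.0566 to 0.166, log2 -0.35 to -0.25), with plain library totals (log2 -0.085, edgeR adjusted p = 0.533) and by DESeq2 (adjusted p = 0.0555). The values were -0.23 under LY-364747 (edgeR adjusted p = 0.131) and 0.22 under CHIR-99021 (edgeR adjusted p = 0.132), the latter 0.43 with plain library totals (edgeR adjusted p = 0.00767). With only the 2 groups compared, the LY-364747 value passed (log2 -0.23, edgeR adjusted p = 0.0428) and the carbidopa value did not (log2 -0.34, edgeR adjusted p = 0.106). Of the exon bases of Gys1, 6.47% overlap Ruvbl2 on the opposite strand, and whether counting used strand is not given in the sources used here.

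Gbe1, on chr16:70313949-70569716, encodes the branching enzyme. Its levels were 20.7 and 16.4 CPM in MEFs, 48.3 and 47.5 under carbidopa, 45.4 and 46.0 under LY-364747, and 37.5 and 39.8 under CHIR-99021. All 6 treated libraries lay above both MEF libraries, and the treated groups did not overlap each other. Gbe1 rose 2.58-fold under carbidopa (log2 1.37, SE 0.13, edgeR adjusted p = 1.48e-05), 2.46-fold under LY-364747 (log2 1.30, edgeR adjusted p = 2.33e-05) and 2.08-fold under CHIR-99021 (log2 1.06, edgeR adjusted p = 9.82e-05). These calls held in every fit that left out a library, with log2 values from 0.89 to 1.54. The lower level under CHIR-99021 than under carbidopa did not pass the test (log2 -0.31, 95% interval -0.57 to -0.047, edgeR adjusted p = 0.112), nor did the one against LY-364747 (log2 -0.24, 95% interval -0.51 to 0.024, edgeR adjusted p = 0.212).

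**Figure D2:**
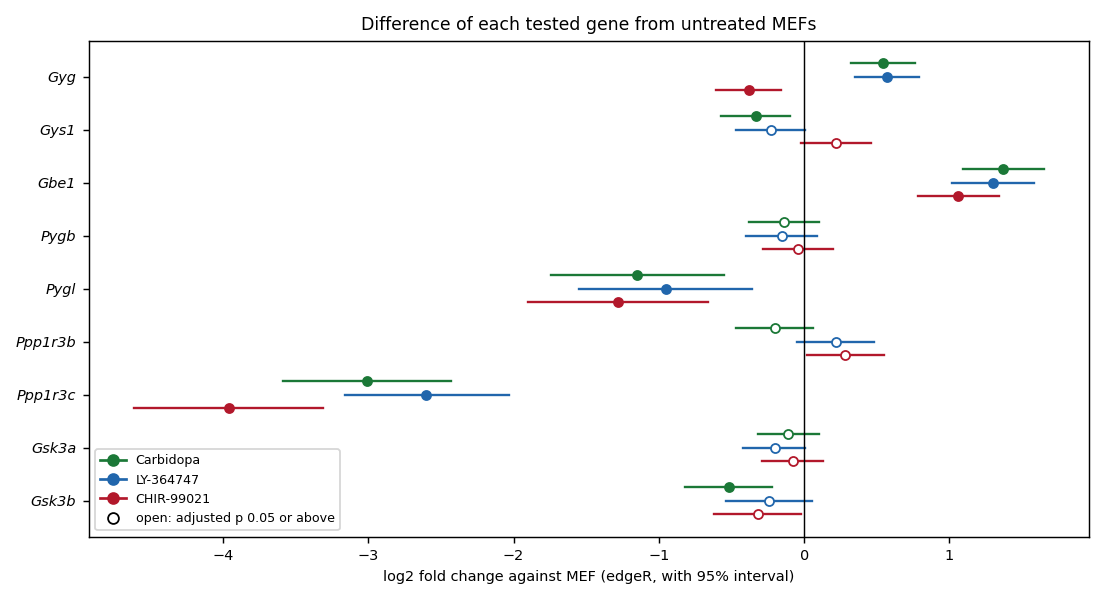
Log2 fold change against MEF (x axis) of the 9 tested genes (y axis) under each compound, with 95% intervals from edgeR. Filled points passed an adjusted p of 0.05, and Gbe1 (1.06 to 1.37) and Ppp1r3c (-3.96 to -2.60) lie farthest from 0 on either side.

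Within-library ratios do not depend on how libraries are scaled. The ratio of Gbe1 to Gys1, in reads per kb, was 0.53 and 0.413 in MEFs, 1.64 and 1.43 under carbidopa, 1.37 and 1.35 under LY-364747, and 0.829 and 0.853 under CHIR-99021. Branching enzyme RNA was thus below synthase RNA in MEF and CHIR-99021 libraries and above it in the carbidopa and LY-364747 libraries. The ratio of Gyg to Gys1 was 11.9 and 12.9 in MEFs, 23.4 and 22.1 under carbidopa, 22.5 and 20.8 under LY-364747, and 7.98 and 8.32 under CHIR-99021, so that the CHIR-99021 libraries were lowest and the other treated libraries highest.

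**Figure D3:**
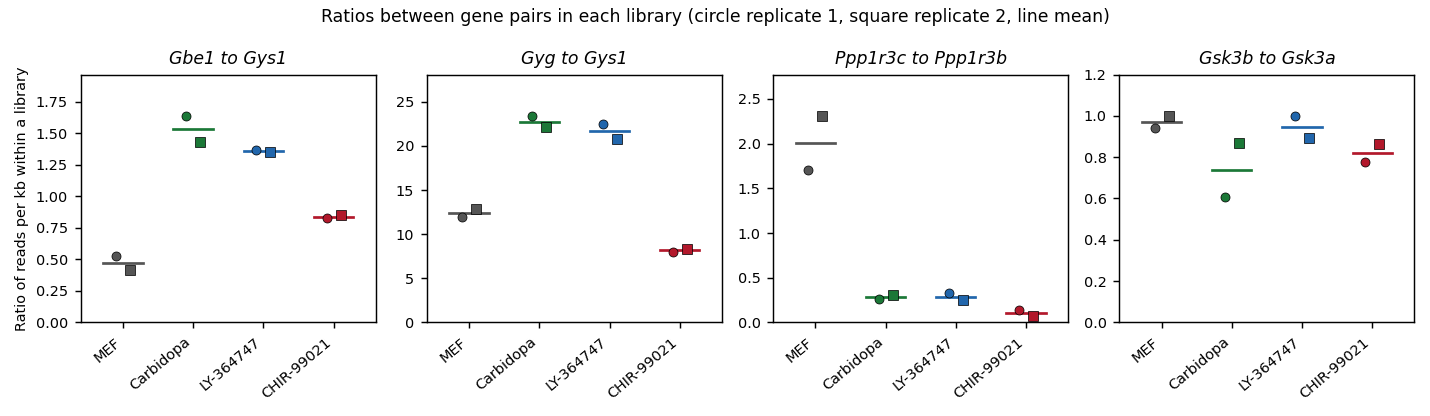
Ratio of reads per kb between 2 genes of the same library (y axis, starting at 0) by group (x axis), with points for libraries and lines for means of 2. For Gyg to Gys1 the CHIR-99021 libraries (7.98 and 8.32) lie below MEF and the carbidopa and LY-364747 libraries (20.8 to 23.4) above, while for Ppp1r3c to Ppp1r3b all treated libraries (0.0746 to 0.332) lie below MEF.

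The phosphorylases break glycogen down. Pygb, the brain-type isoform on chr2:150786735-150831758, made up 95.1% to 98.3% of phosphorylase reads per kb in every library. Its levels were 92.1 and 87.7 CPM in MEFs, 83.9 and 79.4 under carbidopa, 75.7 and 85.9 under LY-364747, and 93.0 and 81.8 under CHIR-99021. No Pygb difference from MEF passed the test (log2 -0.14, -0.15 and -0.041 in that order), and all 3 changed sign with plain library totals (0.11, 0.072 and 0.17). Their 95% intervals were -0.38 to 0.10, -0.40 to 0.089 and -0.28 to 0.20.

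Pygl, the liver isoform on chr12:70190811-70231488, was the less abundant of the tested phosphorylases. It had 69 and 75 reads in MEFs, 40 and 56 under carbidopa, 43 and 51 under LY-364747, and 43 and 28 under CHIR-99021, which is 5.13 and 4.84 CPM in MEFs and 1.62 to 2.71 CPM in treated libraries. All treated libraries were below both MEF libraries. Pygl fell by 1.15 on the log2 scale under carbidopa (SE 0.27, edgeR adjusted p = 0.00782), by 0.95 under LY-364747 (SE 0.27, edgeR adjusted p = 0.0213) and by 1.28 under CHIR-99021 (SE 0.28, edgeR adjusted p = 0.00471). The LY-364747 call was lost with plain library totals (log2 -0.73, edgeR adjusted p = 0.0542) and without either MEF or either LY-364747 replicate (log2 -1.05 to -0.87, edgeR adjusted p = 0.0781 to 0.122), and the carbidopa call without MEF replicate 1 (log2 -1.11, edgeR adjusted p = 0.0507). Of the 14 macrophage markers 13 were tested, and 12, 12 and 13 of them fell under carbidopa, LY-364747 and CHIR-99021, with the summed levels given above. Their part in the Pygl result was not tested.

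Pygm, the muscle isoform on chr19:6384399-6398459, had 11 and 8 reads in MEFs, 2 and 8 under carbidopa, 7 and 3 under LY-364747, and 4 and 9 under CHIR-99021. It did not pass the filter on low counts, so a difference was not tested with all 8 libraries. Muscle marker reads were mostly of Acta1 and Des, while Myog and Myod1 had 0 or 1 read in each library.

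Ppp1r3c, on chr19:36731731-36736653, encodes a phosphatase 1 targeting subunit also called PTG, which brings the phosphatase to glycogen. It had 215 and 367 reads in MEFs, 49 and 56 under carbidopa, 64 and 56 under LY-364747, and 28 and 16 under CHIR-99021. After scaling these were 16.0 and 23.7 CPM, 2.30 and 2.61, 3.59 and 2.98, and 1.61 and 0.928. Every treated library was below both MEF libraries, and the CHIR-99021 libraries were below all others. Ppp1r3c fell by 3.01 on the log2 scale under carbidopa (SE 0.26, 8.06-fold lower, edgeR adjusted p = 1.03e-05), by 2.60 under LY-364747 (SE 0.26, 6.04-fold lower, edgeR adjusted p = 2.75e-05) and by 3.96 under CHIR-99021 (SE 0.29, 15.6-fold lower, edgeR adjusted p = 3.21e-06). The 3 calls held in each fit that left out a library.

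Ppp1r3c was 2.57-fold lower under CHIR-99021 than under LY-364747 (log2 -1.36, SE 0.33, edgeR adjusted p = 0.0206), a call lost without CHIR-99021 replicate 2 (log2 -1.02, edgeR adjusted p = 0.13), without LY-364747 replicate 1 (log2 -1.23, edgeR adjusted p = 0.142) and without LY-364747 replicate 2 (log2 -1.49, edgeR adjusted p = 0.0558). The difference from carbidopa was -0.95 (SE 0.33) and did not pass (edgeR adjusted p = 0.0869), though it did without a filter on low counts (log2 -0.95, edgeR adjusted p = 0.0144). Over the 8 libraries, the tested genes whose log2 CPM followed Ppp1r3c most closely were Nrg1, which encodes the growth factor neuregulin (Pearson r = 0.9933), Fmod, which encodes the matrix protein fibromodulin (r = 0.9902), and Clec4n, a lectin gene of macrophages and dendritic cells (r = 0.9887). These are the highest of 15153 correlations over libraries that fall into MEF and treated groups, and are given as a description. The Clec4n value rests on few reads, with 0.743 and 1.22 CPM in MEFs and 0.112 or less in treated libraries. Ppp1r3c moved with the fibroblast and macrophage markers described above, and their part in its lower level was not tested.

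Ppp1r3b, on chr8:35375739-35388139, encodes the targeting subunit best known from liver. Its levels were 21.5 and 23.4 CPM in MEFs, 19.7 and 19.3 under carbidopa, 24.7 and 27.5 under LY-364747, and 26.3 and 28.4 under CHIR-99021. The carbidopa libraries were the lowest. None of the differences from MEF passed the test (log2 -0.20, 0.22 and 0.28, edgeR adjusted p = 0.202, 0.2 and 0.0818), and with plain library totals the first became 0.047 while the others became 0.44 and 0.50 and passed (edgeR adjusted p = 0.0149 and 0.00674). The CHIR-99021 value also passed with length-trend offsets (log2 0.32, edgeR adjusted p = 0.0407) and with only the 2 groups compared (log2 0.27, edgeR adjusted p = 0.0476). Ppp1r3b was 1.40-fold higher under CHIR-99021 than under carbidopa (log2 0.49, SE 0.12, edgeR adjusted p = 0.02), a call lost without CHIR-99021 replicate 1 (log2 0.54, edgeR adjusted p = 0.0872) and without replicate 2 (log2 0.44, edgeR adjusted p = 0.126). The ratio of Ppp1r3c to Ppp1r3b, in reads per kb, was 1.70 and 2.31 in MEFs, 0.267 and 0.308 under carbidopa, 0.332 and 0.248 under LY-364747, and 0.139 and 0.0746 under CHIR-99021. Ppp1r3c was thus the more abundant of the pair in MEFs and the less abundant in every treated library.

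The GSK3 kinases Gsk3a and Gsk3b, both inhibited as proteins by CHIR-99021, gave 1 call among 6 tests of their RNA against MEF. Over all genes, 37.7%, 31.0% and 38.8% were called under carbidopa, LY-364747 and CHIR-99021. Gsk3a, on chr7:25228258-25237851, had 92.4 and 94.8 CPM in MEFs, 90.4 and 82.9 under carbidopa, 80.0 and 82.5 under LY-364747, and 88.7 and 88.4 under CHIR-99021. None of its differences from MEF passed (log2 -0.11, -0.20 and -0.08), and with plain library totals they were 0.14, 0.022 and 0.14. With the length trend of each library removed, the carbidopa and LY-364747 values passed (log2 -0.22 and -0.23, edgeR adjusted p = 0.0477 and 0.0432), and the LY-364747 value also passed with only the 2 groups compared (log2 -0.20, edgeR adjusted p = 0.0292). The 95% interval for CHIR-99021 was -0.29 to 0.13. Of its exon bases 28.3% overlap 9130221H12Rik on the opposite strand, which had 63 to 207 reads per library against 1244 to 1922 for Gsk3a.

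Gsk3b, on chr16:38089001-38246084, had 295 and 322 CPM in MEFs, 186 and 245 under carbidopa, 272 and 250 under LY-364747, and 234 and 260 under CHIR-99021. The MEF libraries were the highest, and carbidopa replicate 1 was the lowest. Gsk3b fell by 0.52 on the log2 scale under carbidopa (SE 0.13, edgeR adjusted p = 0.0126), and its values of -0.24 under LY-364747 and -0.32 under CHIR-99021 did not pass (edgeR adjusted p = 0.205 and 0.0826). The carbidopa call was lost with plain library totals (log2 -0.27, edgeR adjusted p = 0.1) and without MEF replicate 2 (log2 -0.46, edgeR adjusted p = 0.109). The carbidopa replicates differed from each other with gene length (Spearman rho across 15126 genes of -0.435, against -0.0822 to 0.128 within the other groups), and Gsk3b, with 9831 bases of exon, differed by -0.40 on the log2 scale between them. With the length trend of each library removed the carbidopa value was -0.33 and still passed (edgeR adjusted p = 0.0116). In these fits the CHIR-99021 value was -0.24 and passed (edgeR adjusted p = 0.0432). It also passed by DESeq2 (log2 -0.36, adjusted p = 0.0462) and with only the 2 groups compared (log2 -0.34, edgeR adjusted p = 0.00503), as did the LY-364747 value with only the 2 groups compared (log2 -0.24, edgeR adjusted p = 0.0125).

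Between compounds, 3 of the 9 tested members differed between CHIR-99021 and carbidopa, where 14.7% of all genes did (6.62% higher and 8.08% lower). These were Gys1 and Ppp1r3b, higher under CHIR-99021, and Gyg, lower. Between CHIR-99021 and LY-364747 the count was also 3, with Gys1 higher and Gyg and Ppp1r3c lower under CHIR-99021, against 14.1% of all genes (6.45% higher and 7.69% lower). Between LY-364747 and carbidopa it was 0 by edgeR and by DESeq2, where 0.0132% of all genes, or 2, passed in edgeR, and 1 member, Ppp1r3b, had an unadjusted p under 0.05 (log2 0.42, 95% interval 0.16 to 0.68, edgeR adjusted p = 0.519). Without carbidopa replicate 2, Gsk3b (log2 0.49, edgeR adjusted p = 0.00566) and Ppp1r3b (log2 0.41, edgeR adjusted p = 0.0377) passed in that comparison, and the all-gene count became 3816.

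Beyond the 10 members, 48 genes in 7 lists cover the supply of precursors, breakdown, other phosphatase subunits, quality control, glucose release and the inputs to GSK3, and 41 of them were tested. Under carbidopa 9 were higher and 6 lower, under LY-364747 10 and 4, and under CHIR-99021 9 and 8, which is 36.6%, 34.1% and 41.5% of those tested, beside the 37.7%, 31.0% and 38.8% of all genes. The medians were 0.082, 0.072 and 0.13 on the log2 scale. Between compounds, 3 were higher and 3 lower under CHIR-99021 than under carbidopa (14.6%), and 3 higher and 1 lower than under LY-364747 (9.76%). Between LY-364747 and carbidopa 0 passed in edgeR or DESeq2 and 0 had an unadjusted p under 0.05, while 1 passed without a filter on low counts. By DESeq2 the calls reported below for Hk1, Phkg2 and Btrc under LY-364747 and for Ppp1r3f under CHIR-99021 were lost (adjusted p = 0.0772, 0.117, 0.1 and 0.0626). The Hk1, Phkg2 and Btrc calls under LY-364747 were each made in only 2 of the 8 fits without a library, those without a carbidopa replicate, and were lost without a filter on low counts (edgeR adjusted p = 0.0734, 0.0722 and 0.0629). Of the genes named from these lists, Hk2, Pgm1, Pgm2l1, Ppp1cb, Ppp1r3e, Gskip and Frat1 were picked after their values were seen.

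Of the 7 tested genes of precursor supply, 4 rose and 1 fell under carbidopa and under LY-364747, and 4 rose under CHIR-99021. That is 71.4%, 71.4% and 57.1% of the list, beside 37.7%, 31.0% and 38.8% of all genes (18.0%, 13.7% and 18.7% higher). Hk1, a hexokinase gene, was 96.8 CPM in both MEF libraries and 115 to 175 in treated ones, and passed under carbidopa, LY-364747 and CHIR-99021 (log2 0.38, 0.31 and 0.76, edgeR adjusted p = 0.0157, 0.0456 and 0.00024), the LY-364747 call with the losses given above and one by RLE scaling (edgeR adjusted p = 0.0587). The carbidopa call was lost without either MEF replicate (edgeR adjusted p = 0.103 and 0.113) and with only the 2 groups compared (edgeR adjusted p = 0.0519). Hk2, another hexokinase, fell by 0.75 under carbidopa and by 0.80 under LY-364747 (edgeR adjusted p = 0.00347 and 0.00259), while under CHIR-99021 it was 0.38 (edgeR adjusted p = 0.0676), and it was higher there than under carbidopa (log2 1.12, edgeR adjusted p = 0.000919) and LY-364747 (log2 1.17, edgeR adjusted p = 0.000786). The phosphoglucomutase gene listed as Pgm2 (ENSMUSG00000025791) rose in all 3 (log2 0.74, 0.58 and 0.73, edgeR adjusted p = 0.000943, 0.00435 and 0.000978). Ugp2, whose enzyme makes UDP-glucose, had 106 and 105 CPM in MEFs and rose to 175 and 159 under carbidopa and to 163 and 153 under LY-364747 (log2 0.66 and 0.58, edgeR adjusted p = 0.00106 and 0.00249), with 118 and 140 under CHIR-99021 (log2 0.29, edgeR adjusted p = 0.0634). The gene listed as Pgm1 (ENSMUSG00000029171) rose under carbidopa and CHIR-99021 (log2 0.34 and 0.55) and Pgm2l1 under LY-364747 and CHIR-99021 (log2 0.55 and 0.62). Gys2, the liver synthase, had 0 reads in all 8 libraries, which allows up to 3 in each.

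Among 6 tested genes of breakdown, 1 was called under carbidopa, 1 under LY-364747 and 2 under CHIR-99021. That is 16.7%, 16.7% and 33.3% of the list, beside 37.7%, 31.0% and 38.8% of all genes. Under carbidopa and LY-364747 the gene was Phkg2, a catalytic subunit gene of phosphorylase kinase, which rose (log2 0.49 and 0.39, edgeR adjusted p = 0.0136 and 0.0426). The carbidopa call was lost without either MEF replicate (edgeR adjusted p = 0.0505 and 0.126), and the LY-364747 call as given above. Under CHIR-99021 2 fell, the regulatory subunit genes Phka2 (log2 -0.54, edgeR adjusted p = 0.00977) and Phkb (log2 -0.34, edgeR adjusted p = 0.0186), and neither call held with plain library totals (log2 -0.33 and -0.12). The Phka2 call was also lost without MEF replicate 2 or CHIR-99021 replicate 1 (log2 -0.42 and -0.51). For Phkb the call was also lost without a filter on low counts (log2 -0.32, edgeR adjusted p = 0.0799). It was lost too without either MEF or either CHIR-99021 replicate (log2 -0.38 to -0.29). Phkb was also lower under CHIR-99021 than under carbidopa (log2 -0.39, edgeR adjusted p = 0.0219) and LY-364747 (log2 -0.46, edgeR adjusted p = 0.0104).

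Of the 6 tested phosphatase subunits, Ppp1r3d, a further glycogen-targeting subunit, fell in each comparison with MEF (log2 -0.89, -0.91 and -0.78, edgeR adjusted p = 0.00145, 0.0014 and 0.0031), from 15.8 and 17.8 CPM to 8.41 to 10.5. It was the 1 gene of the list called under carbidopa and under LY-364747, and 5 were called under CHIR-99021. That is 16.7%, 16.7% and 83.3% of the list, beside 37.7%, 31.0% and 38.8% of all genes. Under CHIR-99021 Ppp1r3f (log2 0.94, edgeR adjusted p = 0.0142) and Ppp1r3e (log2 0.79, edgeR adjusted p = 0.0363) rose, and the catalytic subunit genes Ppp1cb (log2 -0.36, edgeR adjusted p = 0.042) and Ppp1cc (log2 -0.32, edgeR adjusted p = 0.033) fell, the last losing its call with plain library totals (log2 -0.11), without a filter on low counts (edgeR adjusted p = 0.0623) and in 6 of the 8 fits without a library (edgeR adjusted p = 0.0584 to 0.176). The Ppp1r3f call was lost without MEF replicate 2 or CHIR-99021 replicate 1 (log2 0.72 and 0.91), besides the loss by DESeq2. Alternatives were not run for Ppp1r3e, with 114 and 76 reads under CHIR-99021, or for Ppp1cb. Ppp1r3g was at 0 and Ppp1r3a at 0 or 1 read. None of the 3 quality-control genes and neither of the 2 tested glucose-release genes passed in any comparison, and G6pc, the glucose-6-phosphatase of liver, had 0 reads in all libraries.

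The path from insulin to AKT, which phosphorylates and inhibits GSK3, had 8 tested genes. Of these, 1 rose and 4 fell under carbidopa, and 1 rose and 2 fell under LY-364747 and under CHIR-99021. That is 62.5%, 37.5% and 37.5% of the list, beside 37.7%, 31.0% and 38.8% of all genes. Irs2, an adaptor of the insulin receptor, rose in all 3 (24.8 and 27.5 CPM in MEFs, 43.3 to 57.6 in treated libraries, log2 0.82, 0.98 and 1.04, edgeR adjusted p = 0.00047, 0.000138 and 8.71e-05). Igf1r fell (log2 -1.11, -0.76 and -0.85, edgeR adjusted p = 0.00043, 0.00481 and 0.00217). Its carbidopa level was 166 ± 48.6 (SD, n = 2) CPM, with an SD of 1.99 to 4.17 in the other groups. Over the fits without 1 library its log2 value under carbidopa ran from -1.44 to -0.84. The carbidopa replicates differed with gene length, as given for Gsk3b, and the part of this in the counts of this list was not tested.

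In the beta-catenin destruction complex and its partners, 3 of 9 genes rose under carbidopa, 4 under LY-364747 and 2 under CHIR-99021, where 1 fell, which is 33.3%, 44.4% and 33.3% of the list beside 37.7%, 31.0% and 38.8% of all genes. Axin1, the scaffold of the complex, rose in all 3 (30.2 and 27.1 CPM in MEFs, 40.9 to 62.7 in treated libraries, log2 0.79, 0.67 and 1.00, edgeR adjusted p = 0.00202, 0.00582 and 0.000415), and Btrc, a ubiquitin ligase subunit, passed in all 3 (log2 0.53, 0.38 and 0.50, edgeR adjusted p = 0.00712, 0.0404 and 0.00987). The Axin1 call under LY-364747 was lost without MEF replicate 2 or LY-364747 replicate 2 (log2 0.59 and 0.52). Besides the losses given above, the Btrc call under LY-364747 was lost with length-trend offsets (log2 0.48, edgeR adjusted p = 0.0765). Its calls under carbidopa and CHIR-99021 were lost without MEF replicate 2 (edgeR adjusted p = 0.0826 and 0.102), and the latter also without CHIR-99021 replicate 1 (edgeR adjusted p = 0.075). Frat2, a GSK3-binding protein, had 3 and 5 reads in MEFs, 31 and 29 under carbidopa, 25 and 21 under LY-364747, and 6 and 11 under CHIR-99021. It passed under carbidopa (log2 2.32, SE 0.49, edgeR adjusted p = 0.00453) and LY-364747 (log2 2.16, SE 0.50, edgeR adjusted p = 0.00813). The LY-364747 call for Frat2 was lost without MEF replicate 1 or LY-364747 replicate 1 (log2 1.94 and 1.99). Frat1, also from few reads, passed under LY-364747 (log2 2.11, edgeR adjusted p = 0.0317). Gskip, which encodes a GSK3-interacting protein, fell under CHIR-99021 (log2 -0.52, edgeR adjusted p = 0.00887).

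GSK3 inhibition is commonly read from feedback genes of the Wnt pathway, of which 8 were listed and 6 tested. Under CHIR-99021 3 rose and 1 fell, and under carbidopa and LY-364747 1 rose, which was Tcf7. That is 66.7%, 16.7% and 16.7% of the list, beside 38.8%, 37.7% and 31.0% of all genes. Rnf43, Axin2 and Znrf3 were picked for naming after their values were seen. Tcf7, a TCF family factor, had 7 and 8 reads in MEFs, 63 and 50 under carbidopa, 66 and 53 under LY-364747, and 68 and 85 under CHIR-99021 (log2 2.34, 2.64 and 3.08, edgeR adjusted p = 0.000541, 0.000227 and 5.86e-05). Lef1, its relative, had 68 and 77 reads under CHIR-99021 and 15 to 33 elsewhere. It was higher under CHIR-99021 than in MEF (log2 1.67, SE 0.33, edgeR adjusted p = 0.00269), carbidopa (log2 1.80, edgeR adjusted p = 0.00428) and LY-364747 (log2 2.34, edgeR adjusted p = 0.00151). Rnf43, from 1 to 20 reads, rose under CHIR-99021 (log2 2.34, edgeR adjusted p = 0.0254). Nkd1, a Wnt antagonist, fell there (log2 -1.39, SE 0.23, edgeR adjusted p = 0.000865). Axin2, a widely used Wnt target, had 32 and 33 reads under CHIR-99021 and did not pass (log2 -0.20, SE 0.31, edgeR adjusted p = 0.648), and Znrf3 differed from carbidopa (log2 0.57, edgeR adjusted p = 0.0295) but not by the test from MEF (edgeR adjusted p = 0.277).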

How the data were processed

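RNA-seq libraries of 8 samples were made from total RNA (the labels name a SMARTER kit, the methods another kit). The authors aligned reads to mm10 with STAR 2.4.2a and deposited counts of reads per gene, whole numbers without normalization. The annotation release and the strand setting are not given in the sources used here. Groups came from the sample labels. No row lacked a gene, and 50354 of 50578 identifiers (99.6%) were found in GENCODE M21 (GRCm38, the mm10 assembly), which gave positions and exon lengths. All 10 members matched by symbol.

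The deposited counts were tested in R 4.3.3 with edgeR 4.0.16 (TMM, filterByExpr, quasi-likelihood test, a single fit over all 8 libraries with no term but group), with Benjamini-Hochberg adjustment over the 15154 genes tested (30.0%). The biological coefficient of variation was 11.0%. CPM were scaled by TMM factors (0.88 and 0.895 in MEFs, 1.03 to 1.06 in treated libraries), and levels per kb were divided by exon length. Log2 CPM for correlations used a prior count of 2. Alternatives were DESeq2 1.42.0, other scalings and filters, only the 2 groups compared, a replicate block and leaving out each library. Plain library totals and offsets for each library's gene-length trend were added after seeing the data. The test was checked on simulated counts.

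The 10 members were all named. Of each wider list, up to 3 genes with the smallest p against MEF among those past an adjusted p of 0.05 were named (some results of these lists are not reported here), and the 3 genes nearest in pattern to the member with the largest change. Members, lists and tests were chosen with earlier results of these data known. Intervals are 95% intervals of the fit, and limits from a count of 0 (up to 3 reads) cover counting error only.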

Additional observations from a re-analysis of the deposited data

How the results depend on the processing

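The counts of differing members kept within 1.5 times the reported value under RLE or plain scaling, both filters, DESeq2, the replicate block and the length-trend offsets. With only the 2 groups compared, the member count became 7 for LY-364747 against MEF and 1 for CHIR-99021 against carbidopa, and the count of wider genes became 25 for LY-364747 against MEF, 1 for CHIR-99021 against carbidopa and 10 for CHIR-99021 against LY-364747. The all-gene counts moved in the same directions, from 4694 to 6946, from 2227 to 1027 and from 2143 to 3673 in these 3 comparisons. Without a filter, wider genes numbered 10 for CHIR-99021 against carbidopa and 1 for LY-364747 against carbidopa. With the replicate block they numbered 3 for CHIR-99021 against carbidopa, where 6 passed without it. The block changed no member count by more than 1.5 times, and of the calls against MEF for members and for genes named by rule it lost 3 under LY-364747, Hk1, Phkg2 and Btrc (edgeR adjusted p = 0.0715, 0.056 and 0.0529). Deviations of same-numbered libraries correlated between -0.16 and 0.13, so the numbers were not treated as pairs. The cause of these changes was not tested.

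Leaving out 1 library at a time gave 4 to 7 differing members for carbidopa, 3 to 7 for LY-364747 and 3 to 7 for CHIR-99021 against MEF, 1 to 4 for CHIR-99021 against carbidopa, 1 to 3 for CHIR-99021 against LY-364747 and 0 to 2 for LY-364747 against carbidopa. For the wider genes the ranges were 9 to 21, 7 to 23, 7 to 22, 1 to 15, 1 to 10 and 0 to 10. A group left with 1 library was assumed to vary like the others. Without either carbidopa library, members numbered 7 for LY-364747 and 7 for CHIR-99021 against MEF, of 10 then tested. Over all genes, the count for CHIR-99021 against carbidopa was 1027 and against LY-364747 3673 with only the 2 groups compared, beside 2227 and 2143. For LY-364747 against carbidopa, 2 genes became 329 without a filter, 16 by DESeq2, 4 with length-trend offsets, 0 with only the 2 groups compared and 3816 without carbidopa replicate 2. Leaving out 1 library gave 3142 to 7996 genes for carbidopa, 2841 to 6519 for LY-364747 and 3433 to 7800 for CHIR-99021 against MEF, where 5717, 4694 and 5878 passed with all libraries, and 715 to 4632 and 663 to 4228 for CHIR-99021 against carbidopa and LY-364747.

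Among the members in the 6 comparisons and the genes named by rule against MEF, for which alternatives were run, directions turned only for differences that had not passed the test. Besides the Gsk3a, Pygb and Ppp1r3b values against MEF with plain library totals (Gsk3a 0.14, 0.022 and 0.14, Pygb 0.11, 0.072 and 0.17, Ppp1r3b 0.047 under carbidopa), plain totals gave -0.0033 for Gsk3a in CHIR-99021 against carbidopa, 0.022 for Phka2 under LY-364747, 0.12 for Ppp1cc and 0.12 for Lef1 under carbidopa. Lef1 under carbidopa was 0.061 with length-trend offsets and 0.24 without carbidopa replicate 2. In CHIR-99021 against carbidopa, Gsk3a was -0.026 and Pygl 0.13 without carbidopa replicate 2, and Pygl was 0.14 without CHIR-99021 replicate 2. Pygb was 0.055 in CHIR-99021 against MEF without CHIR-99021 replicate 2. In LY-364747 against carbidopa, Gyg was -0.017, Pygl -0.026 and Pygb 0.025 without carbidopa replicate 1, and Pygb was 0.08 without LY-364747 replicate 1. Ppp1r3b was -0.012 in CHIR-99021 against LY-364747 without LY-364747 replicate 1. Over the fits without 1 library, Gsk3a in CHIR-99021 against carbidopa ran from -0.026 to 0.10, Pygl there from -0.46 to 0.14, Pygb in CHIR-99021 against MEF from -0.13 to 0.055, Ppp1r3b in CHIR-99021 against LY-364747 from -0.012 to 0.15 and Lef1 in carbidopa against MEF from -0.64 to 0.24. In LY-364747 against carbidopa, Gyg ran from -0.017 to 0.074, Pygb from -0.11 to 0.08 and Pygl from -0.026 to 0.44. Depth limited Pygm, which was not tested with all 8 libraries. Calls for genes with under 10 reads in some libraries, such as Frat2, Tcf7 and Rnf43, rest on few reads.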
